A study of Mus musculus with 26 samples.

Results

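Open chromatin of D1 medium spiny neurons after chronic cocaine and prolonged withdrawal (the group labelled CS) was set against that of D1 neurons after acute cocaine (the group labelled SC). Each group has 4 libraries and 1 deposited list of peaks, and both lists were read on chromosomes 1 to 19 and X. The D1 CS list held 48443 peaks and the D1 SC list 28310, together 76753 of the 399299 peaks in the 8 lists of the series. A peak was called shared when it overlapped a peak of the other list by at least 1 bp, and CS-only or SC-only when no peak of the other list lay within 1 kb. By this rule 25537 CS peaks were shared, 2431 had no overlap but a neighbour within 1 kb, and 20475 were CS-only. On the SC side the same 3 numbers were 26616, 583 and 1111.

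Medium spiny neurons are the main output neurons of the nucleus accumbens, a striatal region central to reward. They fall into a class with the dopamine D1 receptor, which raises cAMP, and a class with the D2 receptor, which lowers it. Cocaine blocks dopamine uptake, activates D1 neurons and induces immediate-early genes such as Fos, and repeated exposure is known to leave lasting marks on their chromatin. ATAC-seq uses a transposase that inserts adapters where DNA is accessible, so promoters in use and active enhancers appear as peaks.

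The series profiled nuclei of D1 and D2 medium spiny neurons of the mouse, with the tissue labelled as brain and the nucleus accumbens named in the title. Beside CS and SC it includes baseline (SS) and cocaine relapse (CC), with 26 libraries in all. The labels used here state no strain, sex, age, dose, schedule or reporter line for either group, and do not say whether the libraries came from separate animals. The lists hold 0 columns per library, so no difference between CS and SC could be set against replicate error and no test was made. All intervals are exact 95% Clopper-Pearson intervals and cover counting error over peaks only, although neighbouring peaks are not independent.

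The D1 label was checked against marker genes. Drd1, the defining receptor, had 1 peak over its promoter in each list, 1162 bp wide with a fold enrichment of 3.77 in CS and 1116 bp wide with a fold of 4.63 in SC. Peaks were also assigned to 8 of 10 D2 neuron markers in each list, Drd2 and Penk among them, while Adora2a and Gpr52 had none in either. Peak presence alone thus did not separate the neuron classes in either list.

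Promoter sequences show what kind of start site lay under the peaks, and 6 are given for the genes on which the named results turn. Each is the stretch from 250 bases before to 50 bases after a RefSeq start site (GRCm38.p6), written 5′ to 3′ in the direction of the gene, and capitals mark CpG dinucleotides. The first 3 held strong CS-only peaks, the next 2 held SC-only peaks, and the Drd1 window lay under a shared peak.
Samhd1, chr2:157135047-157135346, minus strand: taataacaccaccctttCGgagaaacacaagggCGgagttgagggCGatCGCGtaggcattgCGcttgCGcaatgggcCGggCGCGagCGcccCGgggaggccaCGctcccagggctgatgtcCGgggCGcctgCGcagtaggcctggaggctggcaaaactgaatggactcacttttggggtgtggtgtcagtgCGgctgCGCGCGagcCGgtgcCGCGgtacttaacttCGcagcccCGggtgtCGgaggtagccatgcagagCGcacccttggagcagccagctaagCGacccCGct
Mterf4, chr1:93305830-93306129, minus strand: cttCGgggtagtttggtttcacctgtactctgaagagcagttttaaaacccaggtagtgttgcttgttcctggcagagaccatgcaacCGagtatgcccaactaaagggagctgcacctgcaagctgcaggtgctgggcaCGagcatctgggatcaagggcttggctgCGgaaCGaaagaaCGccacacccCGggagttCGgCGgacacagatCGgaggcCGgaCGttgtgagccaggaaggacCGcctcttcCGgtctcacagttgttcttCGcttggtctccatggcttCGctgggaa
Dpp6, chr5:26817107-26817406, plus strand: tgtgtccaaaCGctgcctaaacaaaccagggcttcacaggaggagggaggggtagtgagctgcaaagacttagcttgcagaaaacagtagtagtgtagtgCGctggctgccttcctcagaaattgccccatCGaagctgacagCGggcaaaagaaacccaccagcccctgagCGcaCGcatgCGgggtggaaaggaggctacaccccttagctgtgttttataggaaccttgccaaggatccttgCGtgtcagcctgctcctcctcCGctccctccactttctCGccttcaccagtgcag
Zkscan1, chr5:138084834-138085133, plus strand: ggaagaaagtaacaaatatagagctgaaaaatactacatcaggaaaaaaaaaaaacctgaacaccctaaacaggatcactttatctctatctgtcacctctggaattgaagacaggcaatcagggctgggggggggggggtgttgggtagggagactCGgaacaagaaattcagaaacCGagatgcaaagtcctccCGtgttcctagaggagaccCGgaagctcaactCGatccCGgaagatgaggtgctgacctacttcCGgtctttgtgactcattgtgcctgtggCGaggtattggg
Tlr2, chr3:83841559-83841858, minus strand: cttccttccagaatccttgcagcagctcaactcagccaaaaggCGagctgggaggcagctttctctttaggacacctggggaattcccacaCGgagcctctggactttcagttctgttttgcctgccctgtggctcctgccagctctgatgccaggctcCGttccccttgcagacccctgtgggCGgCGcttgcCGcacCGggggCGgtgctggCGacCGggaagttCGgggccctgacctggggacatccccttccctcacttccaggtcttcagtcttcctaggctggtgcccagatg
Drd1, chr13:54055609-54055908, minus strand: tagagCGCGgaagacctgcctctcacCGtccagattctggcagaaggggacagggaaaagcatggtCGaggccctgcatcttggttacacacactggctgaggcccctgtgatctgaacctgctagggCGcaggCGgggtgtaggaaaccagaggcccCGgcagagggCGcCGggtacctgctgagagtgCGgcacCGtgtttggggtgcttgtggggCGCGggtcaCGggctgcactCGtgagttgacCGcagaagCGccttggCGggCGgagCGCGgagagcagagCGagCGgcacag
The windows held 29 CpGs at Samhd1, 16 at Mterf4, 10 at Dpp6, 8 at Zkscan1, 11 at Tlr2 and 23 at Drd1. GC content ran from 48.3% at Zkscan1 to 65.7% at Samhd1 and at Drd1, so neither a CS-only nor an SC-only peak was tied to 1 base composition. A window of this kind was found for 7 of the 10 strongest CS-only promoters and 2 of the 10 strongest SC-only promoters.

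The withdrawal list was the longer one and held nearly the whole acute list. Of the SC peaks, 94.0% (interval 93.7 to 94.3%) overlapped a CS peak, and 3.92% were SC-only. Of the CS peaks, 52.7% (interval 52.3 to 53.2%) overlapped an SC peak, and 42.3% were CS-only. The CS list covered 24.9 Mb and the SC list 13.9 Mb of the genome. CS-only peaks covered 6.86 Mb and SC-only peaks 0.288 Mb. Most CS-only peaks were far from any SC peak, with a median gap of 23.1 kb.

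Values of the lists themselves differed along with their lengths. A common step fitted to the most frequent fold values of each list was 0.222 in CS and 0.466 in SC. Taken as the step of a single fragment, it corresponds to a background pileup of about 3.5 and 1.15 fragments. Median fold enrichment was 4.67 in CS and 6.02 in SC, and the q-values reached 0.0453 and 0.0356. Fewer fragments in the SC libraries and fewer accessible sites cannot be told apart from these lists, nor can a site open in fewer nuclei and a site less open in each, and the part of this difference in the CS-only count was not tested. Both lists were therefore also cut to the 28310 peaks with the lowest q-values, which kept CS peaks with q up to 1.58e-08 and all SC peaks.

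With lists of equal length, the excess of CS-only over SC-only peaks shrank from 20475 against 1111 to 5565 against 4360. These were 19.7% of the CS peaks and 15.4% of the SC peaks. Shared peaks made up 77.5% of the CS side and 82.4% of the SC side. Cutting the CS list created most of the SC-only peaks: 2940 of the 4360 (67.4%) overlapped a peak of the full CS list, and 3249 (74.5%) had one within 1 kb. None of the 5565 CS-only peaks had an SC peak within 1 kb, because the SC list was already whole.

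CS-only peaks were weak peaks in the main. Their median fold was 4.00, against 5.86 for shared CS peaks, and the strongest reached 9.56. Their median width was 260 bp against 660 bp, and 60.4% were narrower than 300 bp. SC-only peaks had a median fold of 4.91 against 6.07 for shared SC peaks, a maximum of 7.92, a median width of 225 bp, and 78.4% under 300 bp. Just inside and just outside the 1 kb limit the peaks had close fold values and unlike promoter shares. CS peaks with a gap of 501 to 1000 bp had a median fold of 3.40 and a promoter share of 43.3% (460 peaks), and those with a gap of 1001 to 1500 bp 3.47 and 27.1% (299 peaks). For SC peaks the same values were 4.18 and 44.2% (52 peaks), then 4.16 and 28.1% (32 peaks).

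How often a CS peak was found in SC climbed steeply with its strength. Among CS peaks with a fold below 4, 19.8% were shared, and the share was 37.1% at 4 to 5, 70.0% at 5 to 6, 89.7% at 6 to 7 and 96.7% at 7 to 8. All 845 CS peaks with a fold of 10 or more were shared, and 17 of the 3329 with a fold of 8 to 10 were CS-only. SC peaks started from a higher share, 86.0% below a fold of 4, and all 1531 with a fold of 10 or more were found in CS. Both states thus held the same strongest sites, and the difference between the lists lay in the weaker ones. At a given strength promoters were found in the other state more often: for CS peaks with a fold of 5 to 6, 86.2% of promoter peaks (interval 84.7 to 87.5%) were shared, against 62.9% in gene bodies (61.1 to 64.7%) and 61.9% between genes (59.8 to 63.9%).

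**Figure D1:**
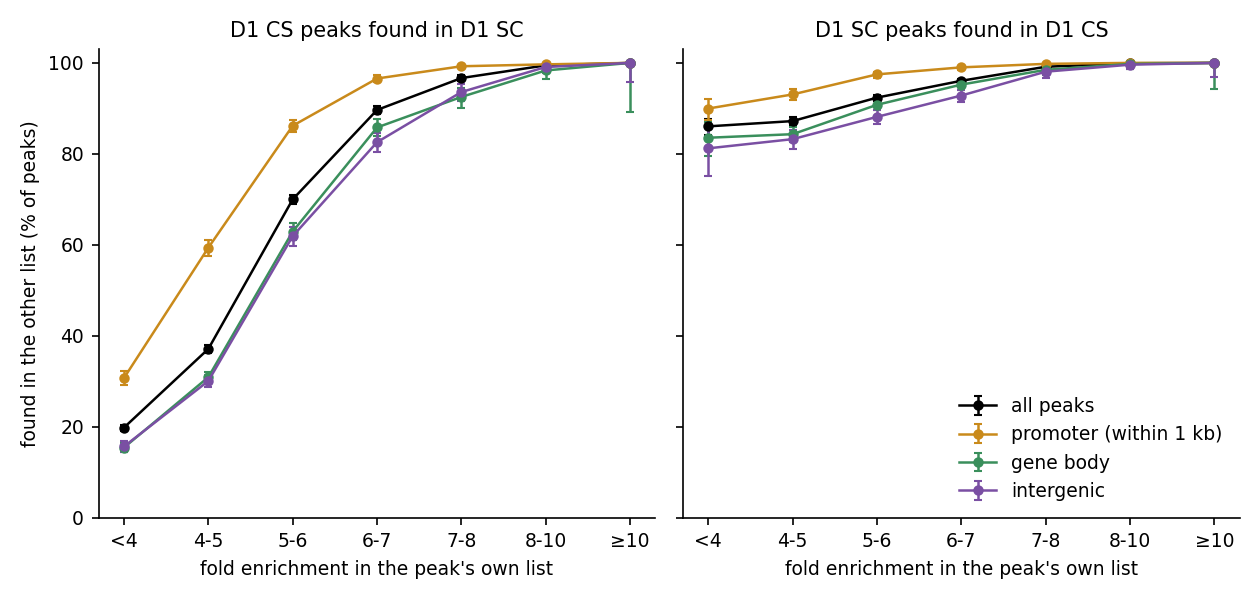
Share of D1 CS peaks found in D1 SC (left) and of D1 SC peaks found in D1 CS (right), in percent, against the fold enrichment of the peak in its own list, for all peaks and by region class; points are shares and bars are 95% exact intervals for counting error. The CS curve climbs from 19.8% below a fold of 4 to 100.0% at 10 or more, with promoter peaks above the other classes in the bins below a fold of 10.

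Shared peaks were promoter peaks about as often as not, whereas CS-only and SC-only peaks mostly lay in gene bodies and between genes. A promoter peak (centre within 1 kb of the assigned start site) was seen for 48.3% of shared CS peaks, 15.7% of CS-only peaks (interval 15.2 to 16.2%) and 11.5% of SC-only peaks (9.70 to 13.5%). The innermost class, within 250 bp of the start, held 41.4% of shared CS peaks, 9.71% of CS-only peaks and 6.75% of SC-only peaks. Gene bodies held 25.6%, 45.2% and 43.8%, and intergenic sequence 21.1%, 30.7% and 36.5%. Exons and introns were not separated in the lists' classes.

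At equal length the order of CS-only and SC-only promoter shares turned. The CS-only share was 15.9% (interval 15.0 to 16.9%) and the SC-only share 20.6% (interval 19.5 to 21.9%), intervals that do not overlap. Gene bodies then held 44.0% of CS-only and 39.5% of SC-only peaks. The CS-only peaks were also wider, with a median of 428 bp against 242 bp. The direction of the promoter difference therefore depended on how many CS peaks were admitted.

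**Figure D2:**
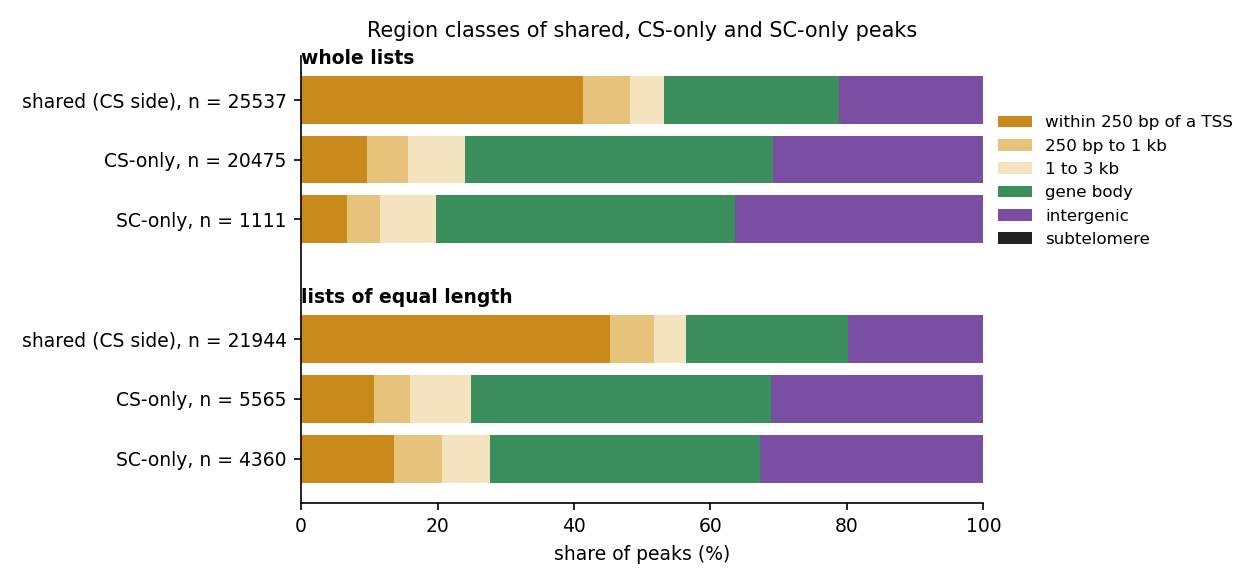
Region classes, in percent of peaks, of shared, CS-only and SC-only peaks from the whole lists (top 3 bars) and from lists of 28310 peaks each (bottom 3 bars); TSS is the transcription start site, and n is the number of peaks. Classes within 1 kb of a start make up 48.3% of shared CS peaks but 15.7% of CS-only and 11.5% of SC-only peaks in the whole lists.

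Distances to the assigned start site gave the same order in the whole lists and also turned at equal length. In the whole lists the median distance was 204 bp for shared CS peaks, 12566 bp for CS-only peaks and 17595 bp for SC-only peaks. Of the shared CS peaks with a recorded distance, 52.5% lay within 250 bp of a start, against 14.0% of CS-only and 10.6% of SC-only peaks. Between 10 and 100 kb from the start lay 19.1%, 37.9% and 39.9%, and beyond 100 kb 7.87%, 15.4% and 19.5%. At equal length the median was 11636 bp for CS-only and 9686 bp for SC-only peaks, and 15.6% and 20.3% lay within 250 bp. By gene type, protein-coding genes were assigned to 69.8% of shared CS peaks, 58.0% of CS-only and 52.7% of SC-only peaks, and long intergenic noncoding RNA genes to 3.51%, 4.22% and 4.41%.

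Promoter windows under CS-only peaks were poorer in CpG than windows open in both states. Among 32585 RefSeq promoter windows of 300 bases, the 10944 with a peak in both lists had a median GC content of 63.0% and a CpG observed-to-expected ratio of 0.817. The 1300 windows with a CS-only peak had 59.0% and 0.585, the 47 with an SC-only peak 58.0% and 0.675, and the 19588 with no peak in either list 48.0% and 0.218. At equal length the ratio was 0.579 for 442 CS-only windows and 0.732 for 395 SC-only windows. Windows open in 1 state only thus lay between the constantly open, CpG-rich promoters and the closed ones.

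Of 6 short motifs sought on either strand, the AP-1 site TGANTCA, bound by Fos and Jun proteins, was in 6.69% of CS-only windows (interval 5.39 to 8.19%), 3.80% of windows open in both lists and 7.85% of all windows. The cAMP response element TGACGTCA, bound by CREB, was in 1.85% of CS-only windows (interval 1.19 to 2.73%), 3.73% of those open in both and 1.80% of all. The Egr site GCGTGGGCG was in 1.00%, 1.31% and 0.617%. The CTCF core CNAGGNGGC was in 156 of the 1300 CS-only windows (interval 10.3 to 13.9%), 13.7% of those open in both and 8.33% of all. The Mef2 core TATTTTTA was in 1.54% of CS-only windows, 0.932% of those open in both and 2.64% of all, and the E-box CAGCTG in 19.6%, 14.1% and 16.4%. Only 5 of the 47 SC-only windows held the AP-1 letters and 4 the response element. At equal length the CS-only and SC-only shares of each motif had overlapping intervals: 6.79% against 5.06% for AP-1 and 2.26% against 3.29% for the cAMP response element. Of the windows printed above, Zkscan1 holds the AP-1 letters, and the other 5 hold none of the motifs.

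The strongest promoter peaks present after withdrawal and missing after acute cocaine stood at genes of varied function. Samhd1, which breaks down deoxynucleotides, had the highest fold, 8.33 (chr2:157134818-157135504, centre 41 bp from its start), and the nearest SC peak was 46.8 kb away. Mfsd7c, a membrane transporter, followed with 8.30 (chr12:85745939-85746287). Mterf4, needed for mitochondrial ribosomes, had 8.03 (chr1:93305575-93306185), and its peak centre fell 1 bp from the start. Zfp40, a zinc finger gene, and Fah, the last enzyme of tyrosine breakdown, each had 8.01. Next came the kinase gene Mast4 with 7.53, then Ly75 (an endocytic receptor), Copb1 (a coat protein of transport vesicles) and Prps1 (nucleotide precursor synthesis) with 7.34 each. Dpp6, an auxiliary subunit of Kv4 potassium channels, had 7.30 (chr5:26817036-26817782). These 10 were among the 2004 protein-coding genes (9.27% of 21627) with a CS-only promoter peak.

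All 10 of these promoter peaks were found in D1 relapse, 9 in D2 CS, and 4 in D1 baseline. The Copb1 promoter, for example, had folds of 3.71 in D1 SS, 10.9 in D1 CC, 8.96 in D2 SS, 8.39 in D2 SC, 8.38 in D2 CS and 8.46 in D2 CC. Its peak was thus missing from D1 SC alone among the 8 lists. The same held for Mterf4, Mast4 and Prps1. Mfsd7c was the most restricted, with a peak in D1 CS (8.30), D1 CC (7.08) and D2 CC (4.38) and in no other list.

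In gene bodies the strongest CS-only peak was in Gc, the vitamin D-binding protein gene, with a fold of 8.99 (chr5:89446629-89447207). Lmcd1, a LIM-domain cofactor gene, had 8.94 (chr6:112283969-112284597), and the meiotic gene Hormad2 had 8.45. Asic2, an acid-sensing ion channel, had 8.01 (chr11:81838310-81838931), as did Plppr4, a lipid phosphatase-related protein of excitatory synapses (chr3:117329351-117330221). Lrrc7, a scaffold of the postsynaptic density, had 7.89, Dst, a cytoskeletal linker, 7.81, and Sema3c, a secreted axon guidance cue, 7.78. Ssbp2 had 7.78 and the Hippo-pathway factor Tead4 7.75. Every one of these 10 peaks was in D1 CC, and 8 were in D1 SS, so most were present at baseline too.

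SC-only peaks were fewer and their strongest members were narrower. The predicted gene Gm20594 had the highest promoter fold, 7.92 (chr6:79818369-79818592), and a peak in 1 other list, D2 CS (5.59). Zkscan1, a zinc finger gene, had 7.45 (chr5:138084828-138085060), with the nearest CS peak 31.6 kb away. A pair of Toll-like receptors, pattern receptors of innate immunity, were next: Tlr2 with 6.70 (chr3:83841535-83841908) and Tlr5 with 6.30 (chr1:182972507-182972737). Akap7, which anchors protein kinase A, and Mcf2, a guanine nucleotide exchange factor, each had 6.05. Hs3st6, a heparan sulfate sulfotransferase, had 6.03 and no peak in any other list. March1, Gtf2ird1 and Psd4 had 6.02, 5.88 and 5.86. They belong to the 88 protein-coding genes (0.407%) with an SC-only promoter peak. None of the 10 was found in D1 SS and 8 were found in D1 CC.

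Among SC-only peaks in gene bodies, the adhesion molecule gene Cntn4 led with a fold of 7.66 (chr6:106571855-106572152). Its peak was also in D1 SS (7.47), D1 CC (6.12), D2 SS (9.04), D2 SC (9.04) and D2 CC (6.09), and so was missing from the CS lists of both neuron classes. Nrg1, a ligand of ErbB receptors, showed the same pattern, with 6.98 in D1 SC (chr8:32827498-32827769), 5.27 in D1 SS and 6.31 in D1 CC. Rp1 and Mlip also shared it, with D1 SC folds of 6.98 and 6.82. Absence from D2 CS was common: that list held 10.3% of all SC-only peaks and 16.0% of CS-only peaks. The cause was not tested. Efna5, an ephrin ligand in axon guidance, had 7.45, the protease gene Tasp1 7.34, the heat shock gene Hspa4l 7.26 and Aig1 7.21. Tmprss11g and Oca2 had 6.98 each.

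With equal lengths the 20 leading CS-only peaks were the same genes. The cut left no room for another outcome, because the SC list stayed whole and these peaks had q-values below 1.58e-08. Most of the leading SC-only peaks overlapped CS peaks that the q-value limit had removed. Of the 10 strongest SC-only promoter peaks at equal length, 8 overlapped a peak of the full CS list, and 7 of the 10 in gene bodies did. Fam199x had a promoter fold of 8.38 in SC and 4.67 in CS (chrX:137049229-137049852). Eya4, a transcriptional coactivator, had 7.45 and 4.00, and Lrfn1, a synaptic adhesion protein, 7.04 and 4.08. In gene bodies Mef2c, an activity-regulated transcription factor, had 8.11 and 4.45 (chr13:83609425-83609671), and the histone deacetylase gene Hdac9 7.45 and 4.67. The exceptions among gene bodies, without an overlapping peak in the full CS list, were Cd44, a hyaluronan receptor (8.38), Cntn4 and Efna5. Of these, Cntn4 and Efna5 were SC-only in the whole lists too, whereas the Cd44 peak had a CS peak within 1 kb there. The limit itself sets a low CS fold at such sites and fold values have different backgrounds in the 2 lists, so these pairs are given side by side and show no change.

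The other 6 lists held most of the peaks that differed between CS and SC, and held both kinds at similar rates. D1 CC contained 86.0% of CS-only peaks (interval 85.6 to 86.5%) and 81.8% of SC-only peaks (79.4 to 84.0%). D1 SS contained 22.9% and 25.0%, with overlapping intervals, against 77.6% of shared CS peaks. Among D2 lists, SS held 67.1% and 65.3%, SC 61.0% and 58.3%, CC 70.7% and 69.2%, and CS 16.0% and 10.3%. In the whole lists D2 CS was the only D2 list for which the intervals of CS-only and SC-only peaks did not overlap (15.5 to 16.5% against 8.54 to 12.2%). At equal length D2 CS held 30.9% of CS-only (interval 29.7 to 32.2%) and 26.9% of SC-only peaks (25.6 to 28.3%). The other D2 lists at equal length held more of the CS-only peaks too, without overlap of the intervals: 83.2% against 80.6% in SS, 78.6% against 75.7% in SC and 85.7% against 83.6% in CC. List length differs widely, from 27898 peaks in D2 CS to 77070 in D1 CC, and its part in these shares was not tested.

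**Figure D3:**
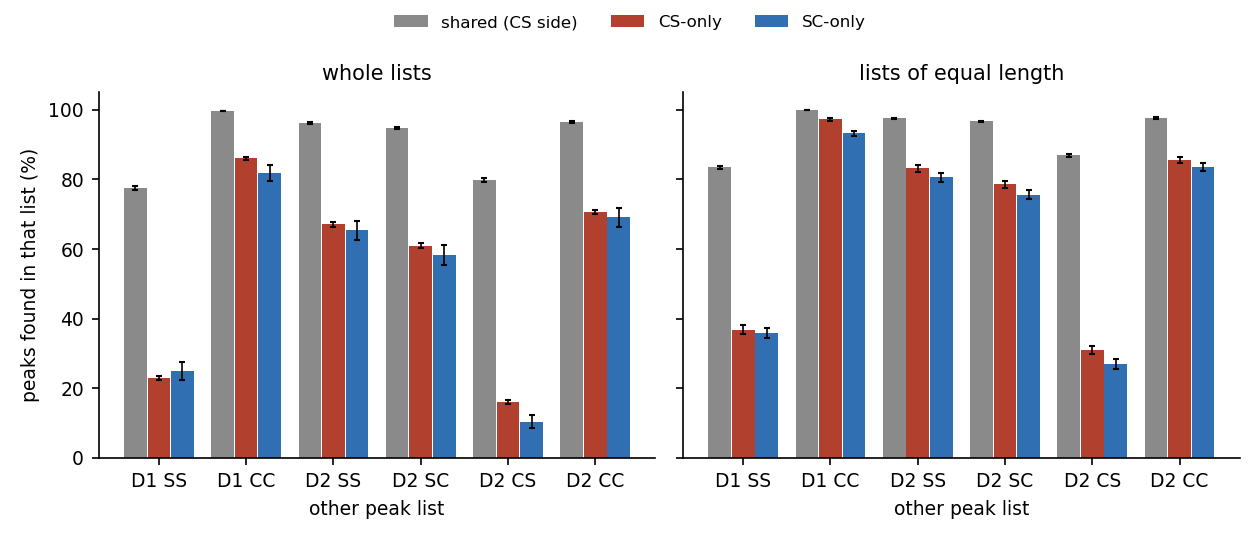
Percent of shared (CS side), CS-only and SC-only peaks that overlap a peak of each of the other 6 lists, for the whole lists (left) and lists of equal length (right); error bars are 95% exact intervals for counting error. CS-only and SC-only bars stand close together in each list, and in D1 CC they reach 86.0% and 81.8%.

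The commonest pattern was the same for both kinds of peak. A peak present in D1 CC and in the SS, SC and CC lists of D2 neurons, but in neither D1 SS nor D2 CS, accounted for 5052 CS-only peaks (24.7%) and 252 SC-only peaks (22.7%). A peak in all the others except D2 CS accounted for 3119 (15.2%) and 217 (19.5%). D1 CC alone held 2458 CS-only peaks (interval 11.6 to 12.5%) and 113 SC-only peaks (8.46 to 12.1%). In none of the other 6 lists were 1752 CS-only peaks (8.56%) and 118 SC-only peaks (10.6%). Those seen only in D1 CS had a median fold of 3.56, those seen only in D1 SC 4.56. The strongest of them in protein-coding genes were in Lmbrd1 for CS (6.07, chr1:24684182-24684419) and Rsph3a for SC (6.39, chr17:7952465-7952669), chosen after their values were seen.

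Across genes, 5731 of 21627 protein-coding genes (26.5%) had at least 1 CS-only peak and 523 (2.42%) at least 1 SC-only peak. Of these, 365 genes had both. At equal length 2309 genes (10.7%) had a CS-only peak and 1883 (8.71%) an SC-only peak, and 627 (2.9%) and 674 (3.12%) had one at the promoter. Many CS-only and SC-only elements sat inside genes whose promoter was open in both states: 71.0% of the 3797 genes with a CS-only gene-body peak (interval 69.5 to 72.4%) had a shared promoter peak, against 46.1% of all genes. For genes with an SC-only gene-body peak the share was 76.7% (interval 72.1 to 80.8%). For genes with a CS-only promoter peak it was 29.0%, and for those with an SC-only promoter peak 43.2%. Counts of CS-only peaks went with gene length. The median length was 55.7 kb for genes with a CS-only peak, 138 kb for those with an SC-only peak and 17.3 kb for all. Among 556 genes of 300 kb or more, 89.6% had a CS-only peak and 24.1% an SC-only peak, against 8.45% and 0.426% of genes under 10 kb.

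The genes with the most CS-only peaks were long neuronal genes. Anks1b, a postsynaptic protein, and Dpp6 had 22 each, and the Dpp6 total was 33 CS peaks against 10 SC peaks over 910.1 kb. Ank3, which anchors sodium channels at the axon initial segment, had 20 over 494.0 kb. Enox1 had 18, with 25 CS peaks against 6 SC peaks, and Ptprn2, a protein of secretory granules, had 18. Asic2, Auts2 (a transcriptional regulator linked to autism) and Cdh13 (a cadherin) had 17, and the synaptic scaffold Magi2 had 16. SC-only peaks never exceeded 4 in a gene. Cobl, an actin nucleator, had these 4, and Adamtsl1, Myo16, Dab1 (an adaptor in reelin signalling) and Msra had 3 each.

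The leading genes parted at equal length. Magi2 had 10 CS-only and 3 SC-only peaks, Auts2 9 and 3, Ank3 9 and 1, and Asic2 and Enox1 8 and 1. Mtor, the kinase that couples nutrients and growth signals to translation, had 7 and 0 within 109.1 kb, the shortest gene among the leading 10. In the whole lists Mtor had 9 CS peaks and 1 SC peak. On the other side Foxp1, a transcription factor of medium spiny neurons, had 8 SC-only and 1 CS-only peak, and the glutamate receptor gene Grid1 had 7 and 2. Both turned the other way in the whole lists, where Foxp1 had 9 CS-only and 2 SC-only peaks and Grid1 13 and 1. Cobl had 6 and 0 at equal length.

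**Figure D4:**
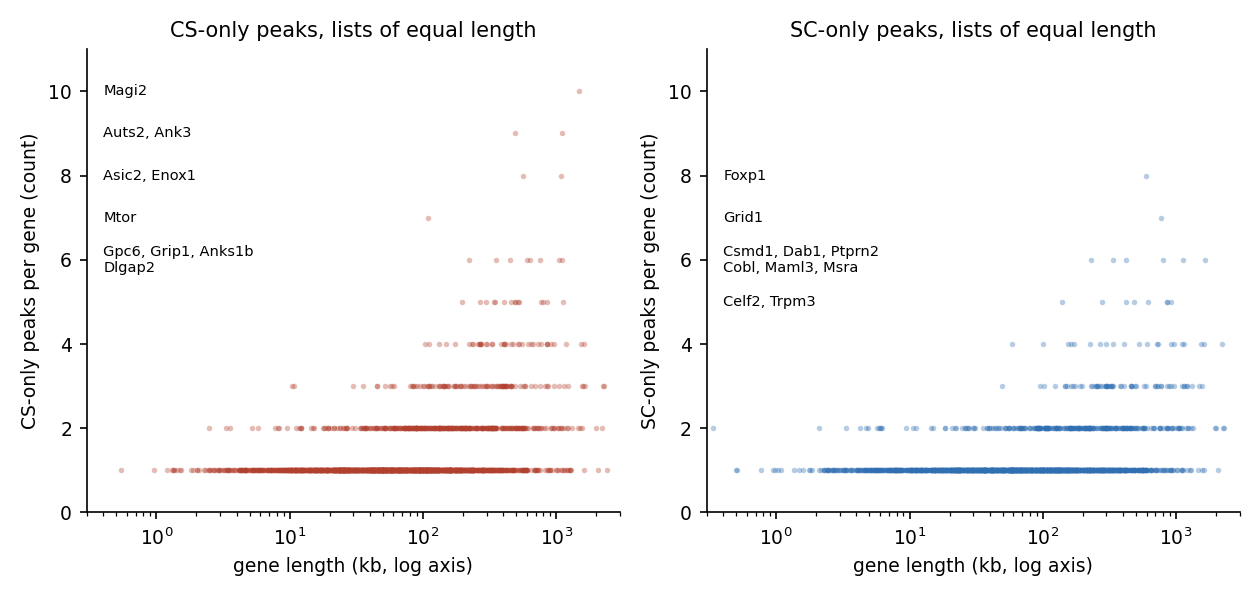
Number of CS-only (left) and SC-only (right) peaks per protein-coding gene from lists of equal length, against gene length in kb on a log axis; each point is a gene with at least 1 such peak, and the leading 10 genes are written at the height of their count. Counts climb with gene length in both panels, to 10 for Magi2 and 8 for Foxp1.

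Gene lists of the striatum and of the cocaine response were then read against the background of all protein-coding genes, where 37.9% of assigned CS peaks were CS-only. At equal length the backgrounds were 16.6% of CS peaks as CS-only and 12.7% of SC peaks as SC-only. Among the 20 rapid immediate-early genes, which neurons induce within minutes of activity, 19 had a CS peak and 18 an SC peak, and 3 of 31 CS peaks (9.68%, interval 2.04 to 25.8%) were CS-only. No SC peak of theirs was SC-only in the whole lists, and at equal length 1 CS-only and 3 SC-only peaks were counted. Median length of these 20 genes was 4.02 kb, against 17.3 kb for all genes, and 19 had a CS promoter peak. Of all 16492 CS promoter peaks, 3205 were CS-only. The part of gene length and region class in the share of 9.68% was not tested. Fos had a promoter peak in both states, with a fold of 3.75 in CS and 5.52 in SC. A further CS promoter peak at Fos (4.37) overlapped no SC peak but had one within 1 kb. Fold values have different backgrounds in the lists, so these values show no change. Arc and Npas4 likewise had shared promoter peaks. The exceptions were Nr4a2, an orphan nuclear receptor, with a CS-only promoter peak of fold 5.34 (chr2:57123711-57124420), and weaker CS-only peaks at Egr2 (2.92) and Klf4 (4.21). Jun was assigned a peak in CS alone, yet that peak overlapped an SC peak that the SC list did not assign to Jun, which shows a limit of counts by assigned gene.

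Delayed activity-regulated genes, the effectors induced later, held 7 CS-only peaks among 27 (25.9%). These lay in 4 of 15 genes (26.7%, against 26.5% of all protein-coding genes). Pcsk1, a convertase that processes neuropeptides, had 3 CS-only peaks around its start, with folds of 5.78, 4.85 and 3.42. The remaining peak at Pcsk1 was shared (7.03 in CS, 8.16 in SC). Nptx1, a synaptic pentraxin that clusters AMPA receptors, had 2 narrow CS-only promoter peaks of fold 3.29 and 3.12 and no SC peak. Homer1, a postsynaptic scaffold, had a CS-only gene-body peak of fold 5.06 beside its shared promoter, and the neurotrophin gene Bdnf a CS-only peak of fold 3.39. At equal length 3 CS-only and 3 SC-only peaks were left in this list.

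Among identity genes of medium spiny neurons, the share of CS-only peaks was above the background of 37.9% for genes common to both neuron classes, with an interval that excluded it. The 13 common genes had 125 CS and 67 SC peaks, of which 61 CS peaks (48.8%, interval 39.8 to 57.9%) were CS-only and 4 SC peaks SC-only. Their median length was 151 kb, against 17.3 kb for all genes. Gene bodies held 45.2% of all CS-only peaks and 25.6% of shared CS peaks. The part of gene length and region class in the share of 48.8% was not tested, and the interval treats the peaks of 13 genes as independent. Adcy5, the main striatal adenylyl cyclase, had 13 CS and 3 SC peaks, and Bcl11b, a transcription factor of these neurons, 11 and 4. Foxp1 had 22 and 14. At equal length this list turned, with 12 CS-only peaks (21.1%) and 19 SC-only peaks (28.4%). Among D1 markers, 12 of 29 CS peaks (41.4%, interval 23.5 to 61.1%) were CS-only, 7 of them at Zfp521 and 3 at Ebf1, and at equal length 2 CS-only and 2 SC-only peaks were counted. Pdyn, the dynorphin precursor of D1 neurons, had an SC-only peak of fold 3.82 (chr2:129698325-129698580) beside its shared promoter peak. D2 markers had 6 CS-only peaks among 18 (33.3%, interval 13.3 to 59.0%), and these included a promoter peak at Drd2 of fold 4.72 (chr9:49340356-49340574) and a peak in its gene body of fold 3.98. None of the D2 marker peaks was CS-only at equal length, and 4 of 12 SC peaks were SC-only.

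Among receptor, channel and wiring genes, most of them long, 5 lists had more CS-only peaks than the background of 37.9% in the whole lists. The GABA-A receptor list had fewer, with an interval that included the background. In the dopamine and cAMP signalling list, 16 of 19 genes had a CS-only peak and 3 an SC-only peak, and 44.0% of CS peaks were CS-only. Phosphodiesterase genes led it, with 13 CS-only peaks at Pde4d and 11 at Pde4b. Among ion channels 27 of 30 genes had a CS-only peak and 8 an SC-only peak, and 44.2% of 339 CS peaks (interval 38.9 to 49.7%) were CS-only. Glutamate receptors had CS-only peaks in 21 of 23 genes (44.8%), synaptic adhesion genes in 25 of 30 (43.7%), and axon guidance genes in 23 of 26 (47.7%). The intervals of the channel, adhesion and guidance lists lay above the background, and those of the other 2 lists included it. Every one of the 23 glutamate receptor genes had more CS than SC peaks, against 6244 of all 21627 protein-coding genes. The median excess was 3.0 for glutamate receptors, 4.0 for ion channels and 0.0 for all genes. Of all protein-coding genes, 26.5% had a CS-only and 2.42% an SC-only peak, and of those of 300 kb or more 89.6% and 24.1%. Median gene length was 351 kb for ion channels and 378 kb for glutamate receptors, against 17.3 kb for all. The part of gene length in these counts and shares was not tested.

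The same 5 lists at equal length again had larger shares than both backgrounds. Ion channels had 27.5% CS-only and 22.8% SC-only peaks, glutamate receptors 22.9% and 27.5%, and synaptic adhesion genes 20.2% and 18.4%. The L-type calcium channel gene Cacna1d was the most uneven member, with 16 CS and 2 SC peaks in the whole lists, and 6 CS-only and 0 SC-only peaks at equal length. Its relative Cacna1c had 4 and 5 at equal length, so neighbouring members of the family differed. The axon guidance genes Ntn1 and Nrp1, a secreted cue and a semaphorin co-receptor, had 5 and 4 CS peaks and no SC peak. All of these CS peaks were CS-only, but 1 was left at each gene at equal length. In the whole lists GABA-A receptor genes had 34.0% CS-only peaks (interval 21.2 to 48.8%). At equal length they had 20.0% CS-only peaks (interval 7.71 to 38.6%, which includes the background of 16.6%) and 12.5% SC-only peaks.

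Cytosolic ribosomal protein and proteasome subunit genes, with median lengths of 3.16 and 12.3 kb, held few CS-only peaks. Of 75 CS peaks at cytosolic ribosomal protein genes, 7 (9.33%, interval 3.84 to 18.3%) were CS-only, and none of 66 SC peaks was SC-only (interval up to 5.44%). Proteasome subunit genes had 13.9% CS-only peaks (interval 4.67 to 29.5%) and 1 SC-only peak, at Psmd1. A CS promoter peak was found at all 66 ribosomal protein genes with a CS peak and at 29 of 31 such proteasome genes. Of all 16492 CS promoter peaks, 3205 were CS-only. The part of gene length and region class in the low shares of these 2 lists was not tested. Zinc finger genes named Zfp had 28.6% of 440 peaks CS-only, below the background, and 5 SC-only peaks. Chromatin regulators linked to cocaine, with a median length of 59.1 kb, had 36.1% of 61 CS peaks CS-only (interval 24.2 to 49.4%, which includes the background). Hdac4, a signal-responsive deacetylase, had 6 of these, and the methyltransferase gene Dnmt3a and the signalling mediator Smad3 had 3 each. The genes of H2A.Z, a histone variant, and its exchange machinery had 4 CS-only peaks among 15 (26.7%, interval 7.79 to 55.1%).

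**Figure D5:**
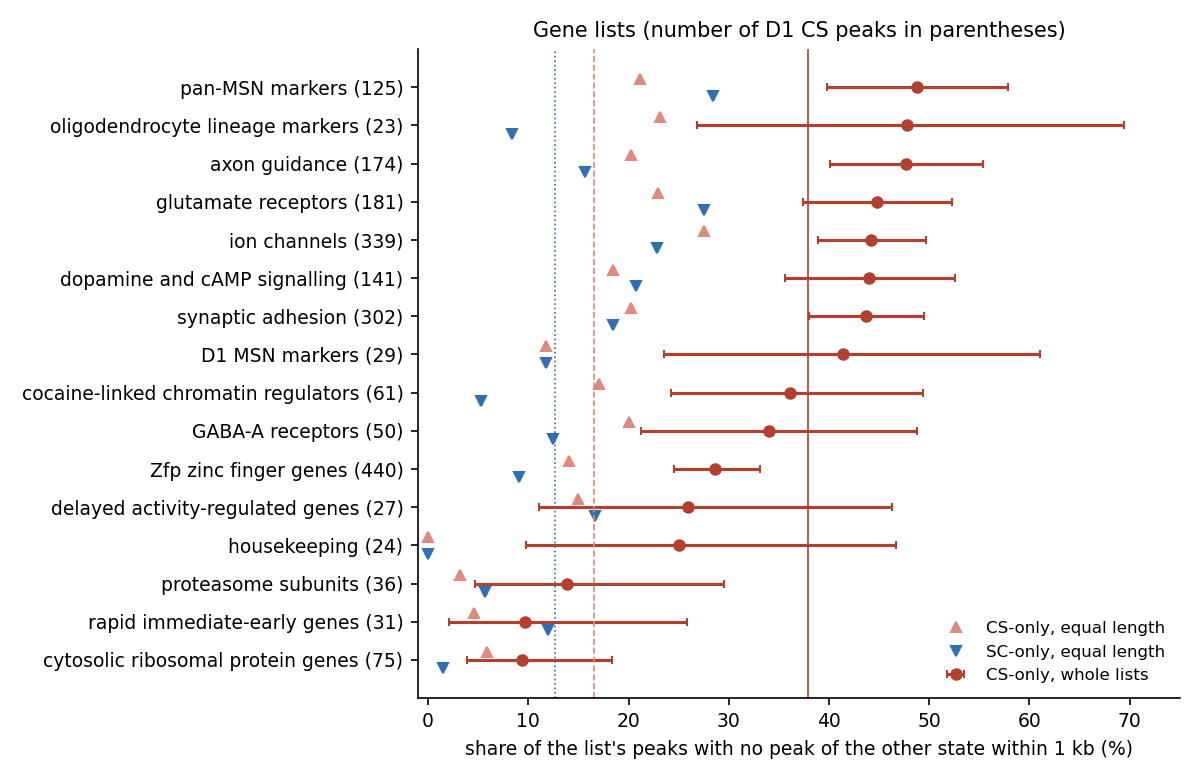
Share of peaks without a peak of the other state within 1 kb, in percent, for gene lists with at least 20 D1 CS peaks; red circles with 95% exact intervals are CS-only peaks in the whole lists, and triangles are CS-only (up) and SC-only (down) peaks at equal length. Vertical lines are the values of all protein-coding genes (solid 37.9%, dashed 16.6%, dotted 12.7%), with ribosomal and immediate-early genes to the left of the solid line and ion channels to the right.

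Marker genes of other cell types held peaks more often in CS. Of 61 such markers, 34 (55.7%) had a CS peak and 16 (26.2%) an SC peak, against 60.2% and 51.8% of all protein-coding genes. A CS-only peak was seen at 25 markers (41.0%, against 26.5% of all genes) and an SC-only peak at 1, Sox9. At equal length 19 markers had a CS peak and 16 an SC peak, and 7 had a CS-only and 4 an SC-only peak. Astrocyte markers with a peak numbered 7 of 10 in CS and 3 in SC, oligodendrocyte lineage markers 8 and 5 of 11, microglia markers 4 and 2 of 10, and vascular markers 5 and 1 of 10. Interneuron markers numbered 5 and 1 of 10, and cortical excitatory neuron markers 5 and 4. The endothelial receptor gene Flt1 had 5 CS-only peaks and no SC peak. It was 1 of 18 markers with a CS peak and no SC peak, along with Gfap, Aldh1l1, Mog, Mag, Cx3cr1, Cdh5, Npy and Chat. No peak in either list was assigned to 27 markers, among them Aqp4, Sox10, Olig2, Csf1r, Cldn5, Pvalb and Sst. Whether nuclei of other cells contributed to the CS-only peaks was not tested.

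The excess of CS peaks was spread over the autosomes. CS-only peaks made up 39.4% (chromosome 3) to 46.0% (chromosome 14) of CS peaks on autosomes, and 31.8% of 1004 CS peaks on chromosome X. The ratio of CS to SC peaks was 1.62 to 1.82 on autosomes and 1.45 on chromosome X.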

How the data were processed

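Nuclei of mouse D1 medium spiny neurons were profiled by ATAC-seq in 4 CS and 4 SC libraries. Per the submitters' processing notes, cutadapt, HISAT, SAMtools and MACS2 were used and the build was mm10. Versions, and whether libraries were pooled before peak calling, are not given in the sources used here. Each deposited list gives, per the file headers, a fold enrichment (a ratio) and a q-value per peak, with the authors' region class, the distance to the start site (other units, bp) and gene. The lists hold no read depth per library.

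Peaks on chromosomes 1 to 19 and X were compared by position with Python 3.11.15, numpy 2.4.6, pandas 2.3.3 and scipy 1.17.1, using an overlap of at least 1 bp and a window of 1 kb. Peaks on other sequences (0.446% in CS, 0.394% in SC) were left out. Symbols were matched to RefSeq (GRCm38.p6) for 13308 of 13515 names. Promoter windows came from RefSeq. The interval code and the overlap code were tested on simulated data. The named peaks are the 10 protein-coding genes with the highest fold in each set and class, and the named genes the 10 with the most peaks of each set, of which 1 is not reported here. The members and gene lists were chosen with earlier results of these data known. Alternatives were another ranking, shorter lists, a stricter q-value, autosomes only, another overlap and other windows.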

Additional observations from a re-analysis of the deposited data

Results flagged for a closer look

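Peaks on patch scaffolds, which no comparison used, numbered 73 in D1 SC and 114 in D1 CS, against 4 in D1 SS. They numbered 137 in D1 CC, 70 in D2 CS and 7 in each of D2 SS, D2 SC and D2 CC. Lists with 4 or 8 libraries thus held 70 or more, and lists with 1 or 2 libraries 7 or fewer. The cause was not tested. Peaks on chromosome Y, also unused, numbered 26 in D1 CS, against 11 in D1 SC and 11 in D1 SS. There were 33 in D1 CC, 22 in D2 SS, 20 in D2 SC, 19 in D2 CS and 20 in D2 CC.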

How the results depend on the processing

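No paired analysis was possible because the lists carry no column per library, and leaving out single libraries could not be run for the same reason. The share of CS peaks found in SC was 77.5% at equal length by q-value, 73.9% at equal length by fold, 82.3% among the 10000 lowest q-values, 54.1% with q at most 1e-05 and 38.4% with a reciprocal overlap of 50%. The share of SC peaks found in CS was 82.4%, 78.5%, 82.7%, 95.2% and 65.8% in the same order. CS-only peaks numbered 5565, 6735 and 1754 in the first 3 settings, and SC-only peaks 4360, 5385 and 1707, or 1694 without the window. The CS-only promoter share was 13.1% by fold, 44.1% among 10000 peaks, 17.4% with the stricter q-value, 18.2% without the window and 15.2% with a window of 5 kb. The SC-only promoter share was 20.6% at equal length by q-value, 31.0% by fold, 53.4% among 10000 peaks and 16.9% without the window. The SC-only promoter share was thus above the CS-only share in the 3 settings with equal lengths and below it in the other settings run. The cause was not tested. The other 14 values stayed within the interval of the reported share or within 1.5 times the reported count. Depth is unknown, which limits every statement on a missing peak.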

Other observations

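Olfactory receptor genes, which are silent in these neurons as a class, had a CS peak in 11 of 1106 genes and an SC peak in 3. Of their 13 CS peaks, 10 were CS-only in the whole lists, and none was CS-only among the 3 left at equal length. The 15 housekeeping genes had a peak in both lists, with 6 of 24 CS peaks CS-only, 2 of them at Gapdh. This was 25.0% (interval 9.77 to 46.7%, which includes 37.9%). At equal length none of the peaks at these genes was CS-only or SC-only. The myelin gene Mbp, on the list of oligodendrocyte markers, had 14 CS and 8 SC peaks, of which 6 CS peaks were CS-only.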
